A study of Mus musculus with 14 samples.

Results

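The receptors for extracellular ATP, ADP and adenosine are described here through 10 genes, taken by name from the deposited tables. They are the P2Y receptors P2ry1, P2ry2 and P2ry6, the P2X channels P2rx1, P2rx4 and P2rx7, and the adenosine receptors Adora1, Adora2a, Adora2b and Adora3. All 10 had a row among the 35171 gene rows kept from the bulk tables and among the 28692 genes of the single-cell matrix. The study profiled mouse liver and its hepatic stellate cells, pericytes of the sinusoid that store vitamin A and can turn into scar-forming cells. Transcripts were measured in 13 bulk libraries, in TPM (transcript abundance corrected for length and scaled to a fixed total per library), and in 1 single-cell library. The UDP-glucose group (3 libraries) held stellate cells of Balbc mice, which were plated for 5 h in 10% serum and then treated with 10 µM UDP-glucose for 24 h in 0.1% serum. The titles of these 3 samples say UDP, whereas their treatment labels say UDP-glucose. The control culture group (3 libraries) held Balbc stellate cells with the same 5 h of plating in 10% serum. They were then cultured for the same 24 h on plastic in 0.1% serum with no treatment. Quiescent stellate cells (4 libraries) were never plated and came from uninjured C57BL/6J livers carrying LratCre and TdTom. Cre in these mice is driven by Lrat, a gene of vitamin A storage, and the cells were sorted on vitamin A and on the red TdTom reporter. Whole uninjured liver (3 libraries) carried the same alleles in the same strain. The single-cell library held cells of all types from a digested, untreated C57BL/6 liver. No injured liver was among the samples. Nothing in the labels ties libraries to separate mice or separate dishes, so the p-values rest on a spread that may be technical.

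ATP and ADP leave cells through channels, vesicles and cell damage, and act close to where they are released. P2X receptors are ATP-gated cation channels, whereas P2Y receptors couple to G proteins, and P2ry1, P2ry2 and P2ry6 all couple to Gq and release calcium from internal stores. Ectoenzymes on the cell surface cut ATP down to AMP and then to adenosine. Adenosine acts on its own G protein-coupled receptors, of which Adora2a and Adora2b raise cAMP through Gs and Adora1 and Adora3 lower it through Gi. In the liver, extracellular ATP is known as a danger signal and as a regulator of bile secretion, and adenosine as a signal that acts on stellate cells.

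The 10 genes lie at 8 separate places in GRCm38 (GENCODE vM21), because 2 pairs are close neighbours. On the plus strand of chromosome 5, P2rx7 (ENSMUSG00000029468.17, 122643911 to 122691432) is followed after 16112 bases by P2rx4 (ENSMUSG00000029470.15, 122707544 to 122729738). On the minus strand of chromosome 7, P2ry6 (ENSMUSG00000048779.5, 100937630 to 100974649) is separated by 21919 bases from P2ry2 (ENSMUSG00000032860.5, 100996568 to 101012866). P2ry1 (ENSMUSG00000027765.6) and Adora3 (ENSMUSG00000000562.5) lie far apart on the plus strand of chromosome 3, at 61002795 to 61008982 and at 105870858 to 105908926. P2rx1 (ENSMUSG00000020787.14) and Adora2b (ENSMUSG00000018500.2) lie on the plus strand of chromosome 11, at 72999103 to 73015200 and at 62248984 to 62266453. Adora1 (ENSMUSG00000042429.8) is on the minus strand of chromosome 1, at 134199223 to 134235431. Adora2a (ENSMUSG00000020178.6) is on the plus strand of chromosome 10, at 75316877 to 75334784. Whether the quantification used strand is not stated in the sources at hand, so overlaps with other gene models matter for 3 members. Of the exon bases of P2ry1, 23.1% lie in an antisense transcript, Gm37035. Of those of Adora1, 20.1% lie in Mybph on the opposite strand, which averaged 0.0200 TPM in UDP-glucose cultures and was listed at 0 in every library of the other 3 bulk groups. Of those of Adora3, 20.9% lie in Tmigd3 on the same strand, which reached at most 0.199 TPM in any library.

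Promoters are shown for the neighbours P2rx7 and P2rx4, for P2ry2, and for P2ry1 and P2rx1, because 4 of them were called between cultured and freshly isolated stellate cells and P2rx4, which was not, is the neighbour of P2rx7. Each line gives the 250 bases before the RefSeq transcript start (GRCm38.p6), 5′ to 3′ on the strand of the gene. Capitals mark the letters of 5 motifs searched on both strands. They were an AP-1 site (TGAGTCA), a core cAMP-response site (TGACG), a TEAD site (CATTCC), a GC box (GGGCGG) and a TATA box (TATAAA).
P2rx7, chr5:122643677-122643926, plus strand: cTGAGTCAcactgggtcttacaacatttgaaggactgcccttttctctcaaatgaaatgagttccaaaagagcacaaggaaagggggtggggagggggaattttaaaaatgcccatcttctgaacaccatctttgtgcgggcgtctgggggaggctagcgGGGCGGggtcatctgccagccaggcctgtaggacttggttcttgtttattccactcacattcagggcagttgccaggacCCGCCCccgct
P2rx4, chr5:122707294-122707543, plus strand: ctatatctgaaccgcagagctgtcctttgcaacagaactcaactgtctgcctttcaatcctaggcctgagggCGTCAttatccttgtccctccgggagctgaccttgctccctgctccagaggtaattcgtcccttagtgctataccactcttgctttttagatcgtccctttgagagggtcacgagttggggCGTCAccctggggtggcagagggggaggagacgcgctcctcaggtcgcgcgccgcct
P2ry2, chr7:101011999-101012248, minus strand: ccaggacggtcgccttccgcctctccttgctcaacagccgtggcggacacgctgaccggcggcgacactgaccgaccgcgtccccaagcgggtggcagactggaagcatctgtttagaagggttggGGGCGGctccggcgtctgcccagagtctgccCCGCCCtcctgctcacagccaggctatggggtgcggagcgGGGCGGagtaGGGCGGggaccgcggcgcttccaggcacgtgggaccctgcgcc
P2ry1, chr3:61002535-61002784, plus strand: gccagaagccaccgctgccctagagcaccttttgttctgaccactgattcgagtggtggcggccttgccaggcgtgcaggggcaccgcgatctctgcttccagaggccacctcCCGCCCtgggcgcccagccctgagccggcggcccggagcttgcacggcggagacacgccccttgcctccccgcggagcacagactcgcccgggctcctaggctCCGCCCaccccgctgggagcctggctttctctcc
P2rx1, chr11:72998895-72999144, plus strand: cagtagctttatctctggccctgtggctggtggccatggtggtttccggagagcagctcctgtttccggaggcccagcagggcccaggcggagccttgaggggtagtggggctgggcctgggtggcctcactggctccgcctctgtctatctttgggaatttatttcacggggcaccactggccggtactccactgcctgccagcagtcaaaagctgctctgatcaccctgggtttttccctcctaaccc

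The P2rx7 promoter held an AP-1 site at its far end and 2 GC boxes, the P2rx4 promoter 2 core cAMP-response sites, the P2ry2 promoter 4 GC boxes and the P2ry1 promoter 2 GC boxes. No searched motif was found in the 250 bases of P2rx1. The table lists a further start for P2rx7, at chr5:122650133-122650382 with 0 matches, and for P2ry2, at chr7:101012054-101012303 with 2 GC boxes, and neither is printed. P2ry2 and P2ry1 were the richest in G and C of the 5, at 71.2% and 70.8%, with 26 and 20 CpG dinucleotides, against a median of 52.4% and 6 CpGs over all 32851 promoters of the table. P2rx1 had 61.2% G and C with 6 CpGs, P2rx4 57.2% with 13 and P2rx7 53.6% with 6. Over all promoters of the same length, 4.46% held the AP-1 letters, 17.8% the core cAMP-response site, 32.7% the GC box, 12.6% the TEAD site and 12.4% the TATA box. These matches describe the sequence only.

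TPM summed to between 998190 and 999797 in each library. These values hold no record of read depth, which is therefore unknown for the bulk libraries. The stellate identity of the sorted cells was checked with 15 marker genes. All 15 averaged 1 TPM or more in quiescent cells, where they summed to 72205 to 80246 TPM per library, in control cultures (12828 to 13569.8 TPM) and in UDP-glucose cultures (10663 to 12152 TPM), against 90.7 to 203 TPM in whole liver. Hepatocyte markers summed to 461 to 578 TPM in quiescent cells, against 76075 to 107826 TPM in liver. Markers of the neighbouring sinusoidal cells were also present in the sorted cells, and their values stand beside the receptors below. In bulk samples, fewer cells of a type and less RNA per cell cannot be told apart. Quiescent cells, liver and cultures stand in 3 separate tables, so a difference between tables cannot be told apart from one between these groups.

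**Figure D1:**
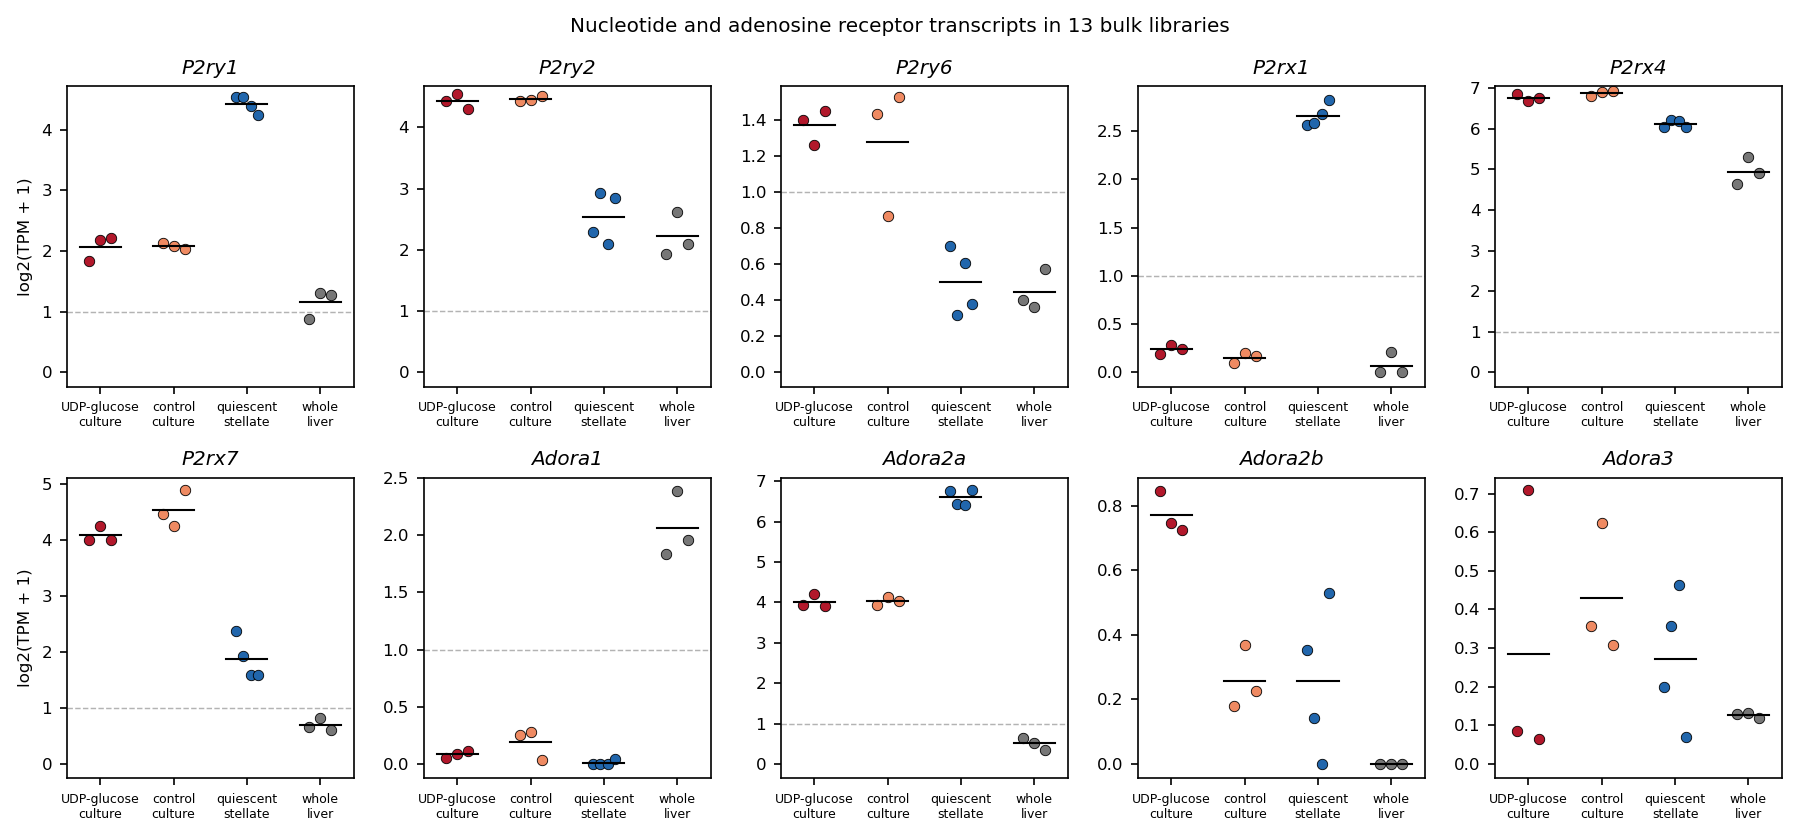
Each panel shows 1 receptor gene, with log2(TPM + 1) on the y axis and the UDP-glucose culture, control culture, quiescent stellate and whole liver libraries on the x axis. Points are libraries, bars are group means and the dashed line, where it falls inside the panel, is 1 TPM; axes differ between panels. Adora2a, P2ry1 and P2rx1 are highest in quiescent stellate cells, P2ry2, P2rx4 and P2rx7 in both cultures, and Adora1 in liver.

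The receptor repertoire of quiescent stellate cells was led by Adora2a (96.8 ± 12.9 TPM), followed by P2rx4 (68.8 ± 4.30 TPM) and P2ry1 (20.6 ± 2.02 TPM; SD, n = 4 throughout). The ranges of these 3 genes over the 4 libraries did not overlap each other or those of the rest. P2rx1 (5.34 ± 0.542 TPM), P2ry2 (5.01 ± 1.66 TPM) and P2rx7 (2.75 ± 1.03 TPM) came next, and neighbours in this order overlapped. P2ry6, Adora3, Adora2b and Adora1 all averaged under 0.5 TPM. In whole liver only P2rx4 stood high (30.4 ± 7.54 TPM; n = 3), above P2ry2 (3.76 ± 1.22 TPM), Adora1 (3.22 ± 0.878 TPM) and P2ry1 (1.25 ± 0.350 TPM), and the other 6 genes averaged under 1 TPM. P2ry2 and Adora1 overlapped in liver. In control cultures P2rx4 led (117 ± 5.84 TPM; n = 3), followed by P2rx7 (22.5 ± 5.65 TPM) and P2ry2 (21.1 ± 0.758 TPM), which overlapped, and then by Adora2a (15.5 ± 1.13 TPM), P2ry1 (3.25 ± 0.154 TPM) and P2ry6 (1.47 ± 0.565 TPM). UDP-glucose cultures had the same 6 genes above 1 TPM, with P2rx4 first (108 ± 7.52 TPM; n = 3), then P2ry2 (20.6 ± 1.79 TPM), P2rx7 (15.9 ± 1.80 TPM) and Adora2a (15.3 ± 1.94 TPM), of which the last pair overlapped. Of 9 other purinergic receptor genes, 3 averaged at least 1 TPM in a group. P2ry14 averaged 266 TPM in UDP-glucose cultures, 204 TPM in control cultures, 132 TPM in quiescent cells and 0.341 TPM in liver, above each of the 10 members in all 3 stellate cell groups. The channel gene P2rx3 averaged 1.20 TPM in UDP-glucose cultures, 0.888 TPM in control cultures, 0.0192 TPM in quiescent cells and 1.39 TPM in liver. P2rx6, of the same family, averaged 0.665 TPM in UDP-glucose cultures, 1.46 TPM in control cultures, 0.593 TPM in quiescent cells and 0.0213 TPM in liver.

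Within each receptor class a single gene held most of the TPM, and in the adenosine and P2Y classes it was not the same gene in every group. Of the summed TPM of the 4 adenosine receptors, Adora2a held 93.8% ± 1.05 in UDP-glucose cultures, 95.8% ± 1.58 in control cultures and 99.6% ± 0.0349 in quiescent cells, but 11.8% ± 5.18 in liver, where Adora1 held 85.7% ± 5.49 (SD). Among P2ry1, P2ry2 and P2ry6, P2ry1 held 79.2% ± 5.10 in quiescent cells, against 23.3% ± 3.40 in liver. In liver P2ry2 held the majority, 69.5% ± 5.6. P2ry2 also led in both culture groups, with 81.0% in UDP-glucose cultures and 81.7% in control cultures. Among the 3 P2X channels, P2rx4 led everywhere, with 86.9% ± 1.98 in UDP-glucose cultures, 83.9% ± 3.05 in control cultures, 89.4% ± 1.35 in quiescent cells and 97.8% ± 0.327 in liver.

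**Figure D2:**
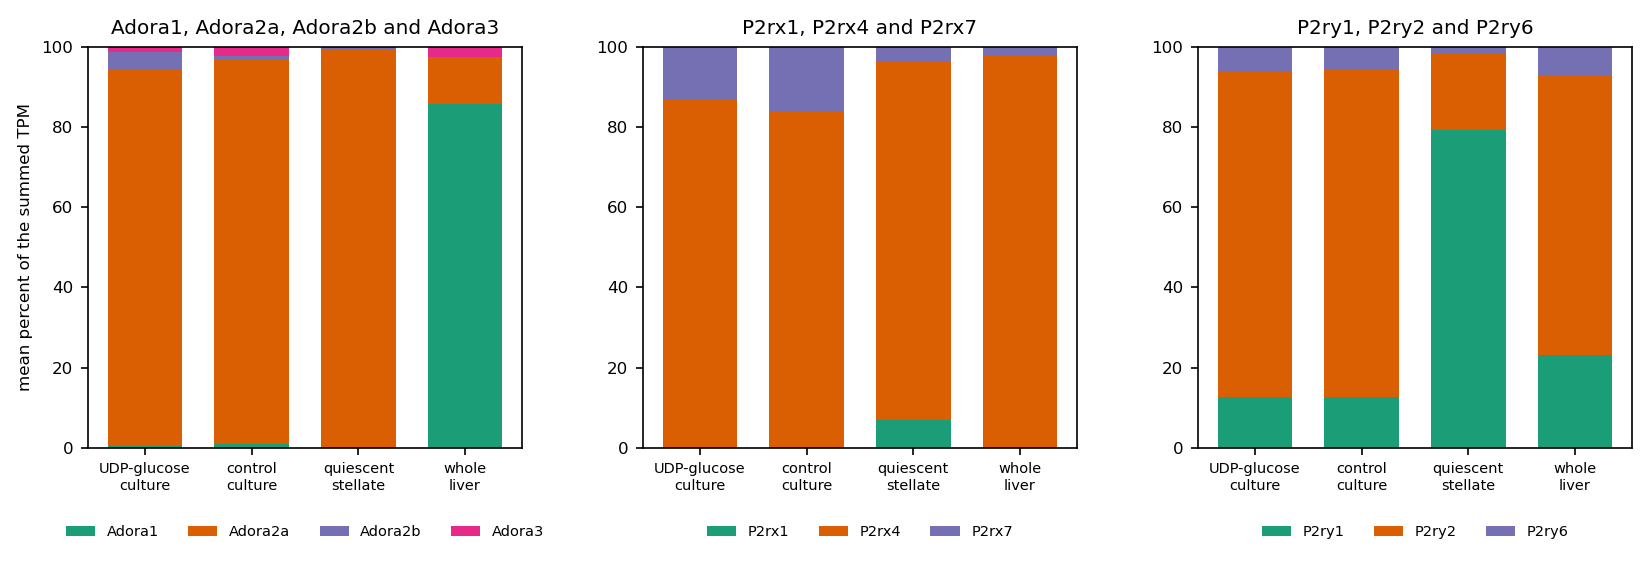
Stacked bars give the mean percent of the summed TPM held by each gene among the 4 adenosine receptors, the 3 P2X channels and the 3 P2Y receptors, for UDP-glucose culture, control culture, quiescent stellate cells and whole liver (3, 3, 4 and 3 libraries). The leading adenosine receptor is Adora2a in all 3 stellate cell groups and Adora1 in liver, and the leading P2Y receptor is P2ry1 in quiescent cells and P2ry2 in the other groups.

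Quiescent stellate cells were set against whole liver to see which receptors this cell type carries in greater abundance than the organ. Adora2a stood out among the members. It measured 107.5, 86.4, 84.9 and 108.4 TPM in quiescent cells, against 0.574, 0.436 and 0.274 TPM in liver. The lowest stellate library lay far above the highest liver library, and the log2 fold change on the log2(TPM + 1) scale was 6.09 (SE 0.14, limma adjusted p = 1.16e-11). Adora2a passed the filter of a mean of 1 TPM only through its quiescent values, so it had to differ. Adora1 ran the other way, at 0, 0, 0 and 0.0307 TPM in quiescent cells, against 2.56, 4.22 and 2.88 TPM in liver (log2 fold change -2.05, SE 0.18, limma adjusted p = 5.19e-07). It passed the filter of a mean of 1 TPM only through its liver values, and without liver replicate 2 it fell under that filter and was not tested. Adora2b reached at most 0.443 TPM in quiescent cells and was listed at 0 in all 3 liver libraries. Adora3 reached at most 0.378 TPM in quiescent cells and averaged 0.0923 TPM in liver. These 2 genes, like P2ry6, were under the filter.

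Of the P2Y receptors, P2ry1, which responds to ADP, measured 22.2, 22.2, 19.9 and 18.0 TPM in quiescent cells, against 0.846, 1.48 and 1.41 TPM in liver. The groups were far apart (log2 fold change 3.27, SE 0.14, limma adjusted p = 1.66e-09). P2ry2, which responds to ATP and UTP, measured 3.93, 6.62, 3.28 and 6.22 TPM in quiescent cells, against 2.84, 5.13 and 3.30 TPM in liver. The groups overlapped, with a log2 difference of 0.32 (95% interval -0.19 to 0.84, limma adjusted p = 0.202), and median-of-ratios scaling and quantile normalisation turned it to -1.24 and -1.30. P2ry6, whose main agonist is UDP, averaged 0.424 ± 0.181 TPM in quiescent cells and 0.366 ± 0.109 TPM in liver, and the groups overlapped.

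Of the ATP-gated channels, P2rx1, known from platelets and smooth muscle, measured 4.89, 4.99, 5.38 and 6.08 TPM in quiescent cells, against 0, 0.155 and 0 TPM in liver (log2 fold change 2.59, SE 0.14, limma adjusted p = 1.13e-08). It passed the filter only through its quiescent values, so it had to differ. P2rx4, which also sits on lysosomes, measured 65.2, 72.7, 72.4 and 64.9 TPM in quiescent cells, against 23.7, 38.6 and 28.9 TPM in liver. P2rx7, which needs high ATP and is known for triggering the NLRP3 inflammasome in macrophages, measured 4.19, 2.79, 2.02 and 2.0 TPM in quiescent cells, against 0.576, 0.773 and 0.528 TPM in liver. The groups did not overlap for either channel, but P2rx7 passed the filter only through its quiescent values and so had to differ. The log2 fold changes of TPM were 1.18 for P2rx4 and 1.17 for P2rx7 (limma adjusted p = 2.29e-05 and 0.000222), but after median-of-ratios scaling they were -0.72 and 0.10, and after quantile normalisation -0.20 and 0.08, none of them called.

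In all, 7 of the 10 receptors were tested, 5 were higher in quiescent cells and 1 was lower at an adjusted p of at most 0.05 and a log2 fold change of at least 1 in size. In the same comparison 77.9% of all 12643 genes tested were called, 67.0% higher and 10.9% lower, so the members' counts lie near this background. Groups that did not overlap were more common still, with 77.2% of all genes higher and 13.9% lower. Over all genes, the median log2 fold change was 1.62, and set against that median Adora2a stood at 4.47, P2ry1 at 1.65, P2rx1 at 0.97, P2rx4 at -0.45, P2rx7 at -0.45 and P2ry2 at -1.30. Of all called genes 86.0% were higher, against 50.6% after median-of-ratios scaling, which brought the median of all genes to 0.04. Under that scaling 3 members were called higher (P2ry1, P2rx1 and Adora2a) and 2 lower (P2ry2 and Adora1), where 26.7% of all genes were called higher and 26.1% lower. Marker sums of several other cell types were also higher. Those of hepatocytes, NK cells, neutrophils, erythroid cells and cholangiocytes were lower, with all tested erythroid (5) and cholangiocyte (3) markers lower. Vein endothelial markers summed to 353 to 417 TPM, against 7.22 to 14.3 TPM in liver. Of the 6 tested, 4 were higher (2 higher and 1 lower after median-of-ratios scaling). Sinusoidal endothelial markers (15 of 15 averaging 1 TPM or more in quiescent cells) summed to 502 to 1254 TPM there, against 51.7 to 122 TPM in liver, and 14 of 15 were higher (10 higher and 1 lower after median-of-ratios scaling). Kupffer cell markers (14 of 14) summed to 314 to 401 TPM, against 75.3 to 141 TPM in liver, and 8 of 14 were higher (2 higher and 2 lower after median-of-ratios scaling), with a median log2 fold change of 1.12, under that of all genes. Platelet and megakaryocyte markers, of which 3 of 10 averaged at least 1 TPM, summed to 110 to 128 TPM, against 5.57 to 7.17 TPM, with Itga2b, Pf4 and Clec1b the most abundant and Treml1 at 0. T cell markers summed to 26.3 to 33.5 TPM in quiescent cells, with Cd3e at 0, against 4.30 to 6.50 TPM in liver. Of the 3 tested, 2 were higher (1 after median-of-ratios scaling). Plasmacytoid dendritic cell markers summed to 448 to 495 TPM, with Cox6a2, Klk1 and Cd300c at 0, against 131 to 148 TPM. Of the 4 tested, 3 were higher and 1 lower (2 and 1 after scaling). The part of other cells in the levels of Adora2a, P2ry1, P2rx1, P2rx4 and P2rx7 in the bulk libraries was not tested.

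**Figure D3:**
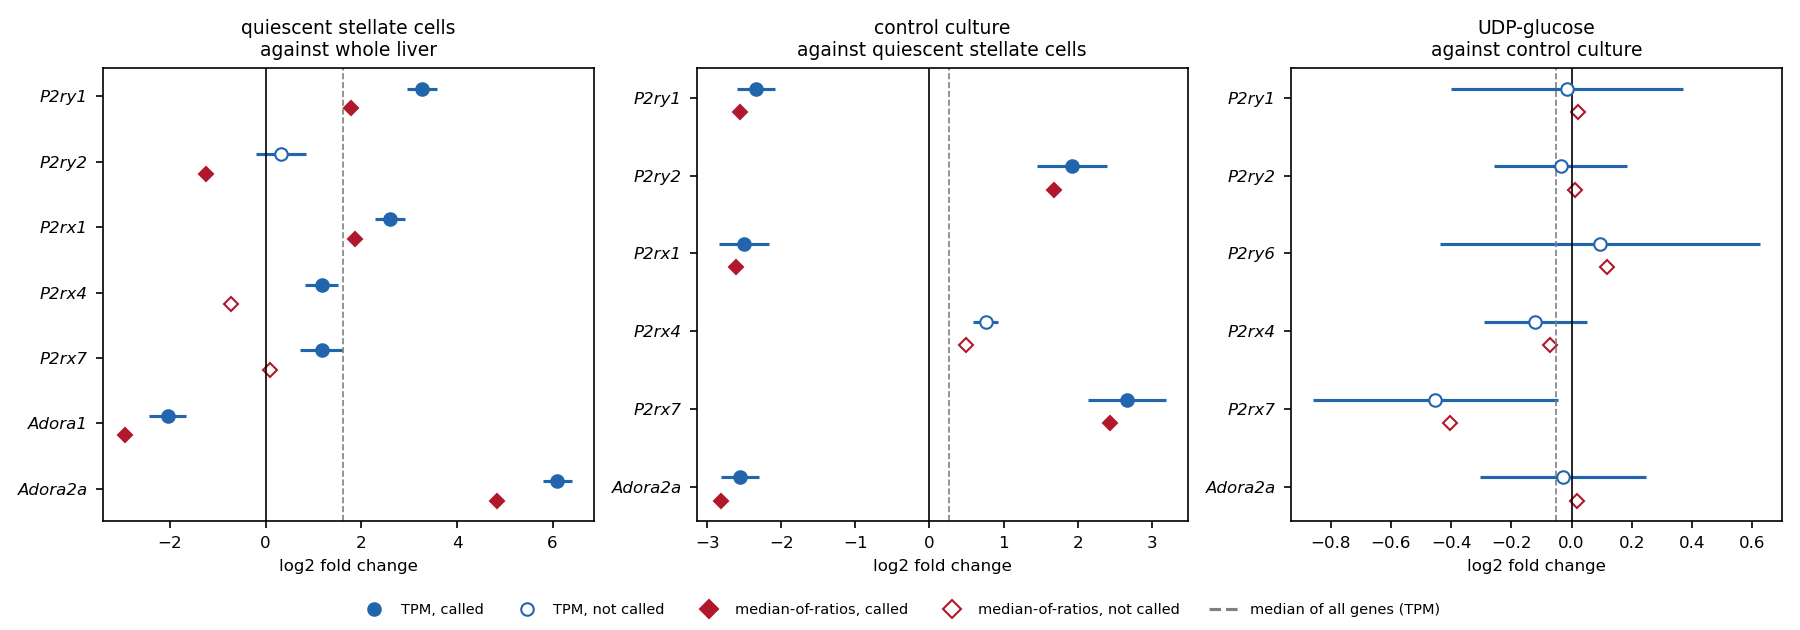
Log2 fold changes of the members tested, in quiescent stellate cells against whole liver, control culture against quiescent cells, and UDP-glucose against control culture (x axes, on the log2(value + 1) scale, with different ranges). Circles are TPM with 95% limma intervals, diamonds the values after median-of-ratios scaling, filled where called, and the dashed line is the median of all genes. P2rx4 and P2ry2 change sign between the scalings against liver, whereas Adora2a, P2ry1, P2rx1 and Adora1 keep theirs.

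Genes that make, remove and relay these signals were counted in lists around the receptors. The counts stand beside shares over all genes of 67.0% higher and 10.9% lower (26.7% and 26.1% after median-of-ratios scaling). Among ectoenzymes and other nucleotide-hydrolysing enzymes, 8 of 13 tested were higher in quiescent cells and 4 lower (3 and 4 after median-of-ratios scaling). Nt5e (CD73), which makes adenosine from AMP, was 179 ± 25.5 TPM in quiescent cells and 0.958 ± 0.281 TPM in liver (log2 fold change 6.52). Entpd8, a hepatocyte enzyme that cuts ATP and ADP, was 0.0138 TPM in quiescent cells and 69.5 ± 8.99 TPM in liver (log2 fold change -6.11). Of 8 genes of adenosine uptake and clearance, 5 were higher and 3 lower (2 and 3 after scaling). Adk, which phosphorylates adenosine to AMP, was 40.2 ± 3.69 TPM in quiescent cells and 263 ± 51.9 TPM in liver, and Ada, which deaminates it, was 10.2 ± 1.86 TPM in quiescent cells and 0.415 ± 0.247 TPM in liver. Among 12 tested genes of the list for nucleotide release, which holds channels and transporters, 7 were higher and 4 lower (6 and 4 after scaling). The connexin Gja1 was 230 ± 49.0 TPM in quiescent cells and 0.760 ± 0.392 TPM in liver, and the hepatocyte connexin Gjb1 was 0.0553 TPM in quiescent cells and 374 ± 51.2 TPM in liver.

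Downstream of the adenosine receptors, 16 of 18 genes of the Gs and Gi arm were higher in quiescent cells and 1 lower (9 and 2 after median-of-ratios scaling). Over all genes, 67.0% were called higher and 10.9% lower (26.7% and 26.1% after scaling), which is the background for each count here. The adenylyl cyclase Adcy5 was 66.4 ± 14 TPM in quiescent cells and 0.102 ± 0.0437 TPM in liver, and the Gi subunit Gnai2 was 764 ± 15 TPM in quiescent cells and 27.5 ± 4.13 TPM in liver. Downstream of the P2Y receptors, 10 of 11 Gq-arm genes were higher and 0 lower (6 and 0 after scaling), with the calcium release channel Itpr1 at 136 ± 27.1 TPM in quiescent cells and 3.78 ± 0.381 TPM in liver and the Gq-class subunit Gna14 at 29.5 ± 2.35 TPM in quiescent cells and 0.889 ± 0.0633 TPM in liver. All 10 cAMP-response genes were higher (9 after scaling), and Fos, also an early gene of many other stimuli, was 7230 ± 474 TPM in quiescent cells and 29.9 ± 8.92 TPM in liver. Whether any of the receptors acted on the genes of this list was not tested. Of 5 genes that desensitise receptors, 4 were higher (2 higher and 1 lower after scaling), with the arrestin Arrb1 at 125 ± 20.7 TPM in quiescent cells and 0.947 ± 0.453 TPM in liver. In the inflammasome arm of P2rx7, 6 of 7 were higher and 1 lower (2 and 1 after scaling), with Il1b at 13.2 ± 4.07 TPM in quiescent cells and 0.227 ± 0.118 TPM in liver, and Il18 at 0.436 ± 0.335 TPM in quiescent cells and 13.8 ± 2.21 TPM in liver. Beside a median log2 fold change of 1.62 for all genes, the lists' medians were 4.80 for the cAMP-response genes, 2.97 for the Gq arm, 2.64 for desensitisation, 2.46 for nucleotide release, 2.16 for the Gs and Gi arm, 1.87 for the inflammasome arm, 1.61 for nucleotide hydrolysis and 1.53 for adenosine clearance.

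Control cultures were set against quiescent cells, which shows how the receptors differ after 24 h on plastic. Culture here includes 5 h of plating in 10% serum and 0.1% serum afterwards. These groups also differ in strain, in table and in the LratCre and TdTom alleles, which are named for the quiescent cells and not for the cultures. None of these can be told apart from culture. The labels describe the sort for the unplated cells, in words that leave out only cells treated with UDP-glucose, and name none for the control cultures. Whether control cultures were sorted is thus uncertain, also where they are set against UDP-glucose cultures. Adora2a, the leading receptor of fresh cells, measured 14.4, 16.7 and 15.5 TPM in control cultures, against 107.5, 86.4, 84.9 and 108.4 TPM in quiescent cells (log2 fold change -2.56, SE 0.11, limma adjusted p = 1.50e-07). P2ry1 measured 3.40, 3.26 and 3.10 TPM in control cultures, against 18.0 to 22.2 TPM in quiescent cells (log2 fold change -2.34, SE 0.11, limma adjusted p = 2.38e-07). P2rx1 measured 0.0686, 0.149 and 0.123 TPM in control cultures, against 4.89 to 6.08 TPM in quiescent cells (log2 fold change -2.51, SE 0.15, limma adjusted p = 8.19e-07). All 3 fell to values below every quiescent library, but P2rx1 passed the filter only through its quiescent values and so had to differ.

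P2rx7 and P2ry2 rose in culture. P2rx7 measured 20.9, 17.9 and 28.8 TPM in control cultures, against 4.19, 2.79, 2.02 and 2.0 TPM in quiescent cells, the largest rise among the members tested (log2 fold change 2.66, SE 0.23, limma adjusted p = 8.85e-06). P2ry2 measured 20.5, 20.8 and 21.9 TPM in control cultures, against 3.93, 6.62, 3.28 and 6.22 TPM in quiescent cells (log2 fold change 1.92, SE 0.21, limma adjusted p = 3.55e-05). P2rx4, the neighbour of P2rx7 on chromosome 5, measured 110.3, 119.1 and 121.4 TPM in control cultures, against 65.2, 72.7, 72.4 and 64.9 TPM in quiescent cells. Its groups did not overlap either, but its log2 difference of 0.76 (SE 0.07, limma adjusted p = 1.61e-05) stayed under the minimum of 1 and was not called. P2ry6, the neighbour of P2ry2 on chromosome 7, was under the filter and measured 1.70, 0.823 and 1.88 TPM in control cultures, against 0.627, 0.247, 0.524 and 0.298 TPM in quiescent cells. Every culture lay above every quiescent library, and without the filter its log2 difference was 0.77 (limma adjusted p = 0.0119), under the minimum, and 1.57 (limma adjusted p = 0.0184) with a pseudocount of 0.1 in place of 1, a setting chosen after seeing the data. The other 3 genes stayed low. Adora3 averaged 0.353 ± 0.163 TPM in control cultures and 0.214 ± 0.145 TPM in quiescent cells, Adora2b 0.198 ± 0.0822 TPM in control cultures and 0.206 ± 0.195 TPM in quiescent cells, and Adora1 0.143 ± 0.100 TPM in control cultures and 0.00767 ± 0.0153 TPM in quiescent cells. Their groups overlapped.

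Of the 6 members tested, 2 were called higher and 3 lower, and these counts were the same after median-of-ratios scaling and quantile normalisation. Of all 12537 genes tested, 31.8% were called, 18.6% higher and 13.2% lower (12.3% and 16.2% after median-of-ratios scaling), and 46.4% were higher without overlap and 23.6% lower without overlap. All genes together had a median log2 fold change of 0.26, with 58.6% of the called genes higher, against 0.02 and 43.3% after median-of-ratios scaling. Of the 15 stellate markers tested, 0 rose and 13 fell (14 fell after median-of-ratios scaling), with a median log2 fold change of -2.68. Markers of other cells moved in both directions in culture. Platelet and megakaryocyte markers summed to 11.2 to 13.4 TPM in control cultures, against 110 to 128 TPM in quiescent cells, and all 3 that were tested fell. Sinusoidal endothelial markers summed to 96.6 to 112 TPM with Stab2 at 0, against 502 to 1254 TPM in quiescent cells, and 14 of 15 fell. Kupffer cell markers summed to 146 to 184 TPM with Clec4f, Vsig4 and Cd163 at 0, against 314 to 401 TPM in quiescent cells, and 13 of 14 fell. Erythroid markers summed to 18.4 to 33.7 TPM in control cultures, against 0 to 12.4 TPM in quiescent cells, and all 3 that were tested rose. Cholangiocyte markers summed to 7.56 to 14.7 TPM in control cultures, against 1.09 to 2.90 TPM in quiescent cells, and 2 of 3 rose. Of 6 vein endothelial markers, 2 rose and 3 fell. The part of these cells in the values of the receptors was not tested.

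Several genes that produce, carry or relay adenosine were lower in culture as well, and some were higher. Over all genes, 18.6% were called higher and 13.2% lower (12.3% and 16.2% after median-of-ratios scaling). Of 12 nucleotide-hydrolysing enzymes tested, 0 rose and 4 fell (5 fell after median-of-ratios scaling), with Nt5e at 20.5 ± 3.46 TPM in control cultures and 179 ± 25.5 TPM in quiescent cells (log2 fold change -3.06) and Enpp1, which cuts ATP to AMP, at 2.92 ± 0.361 TPM in control cultures and 12.9 ± 1.59 TPM in quiescent cells. In the list for adenosine uptake and clearance, 1 of 8 rose and 3 fell (1 and 4 after scaling). Adk was 128 ± 2.04 TPM in control cultures and 40.2 ± 3.69 TPM in quiescent cells, and Slc29a1 (ENT1), an adenosine transporter, was 190 ± 9.40 TPM in control cultures and 579 ± 31.1 TPM in quiescent cells. In the Gs and Gi arm, 2 of 17 rose and 4 fell (1 and 4 after scaling), with Adcy5 at 15.7 ± 2.56 TPM in control cultures and 66.4 ± 14 TPM in quiescent cells. Prkar2b of the same arm rose, at 65.4 ± 6.86 TPM in control cultures and 20.2 ± 1.77 TPM in quiescent cells. In the Gq arm, 1 of 11 rose and 3 fell (0 and 4 after scaling), with Itpr1 at 45.6 ± 18.0 TPM in control cultures and 136 ± 27.1 TPM in quiescent cells. Of the 10 cAMP-response genes 0 rose and 8 fell under both scalings, and Nr4a1, an orphan nuclear receptor gene, was 10.1 ± 0.585 TPM in control cultures and 1398 ± 198 TPM in quiescent cells. The part of the adenosine receptors in this fall was not tested. In the inflammasome arm of P2rx7, 0 of 6 rose and 3 fell, with Pycard (ASC), the inflammasome adaptor, at 4.94 ± 1.46 TPM in control cultures and 11.8 ± 4.73 TPM in quiescent cells, and Il1b listed at 0 in all 3 control cultures and at 13.2 ± 4.07 TPM in quiescent cells. Of 9 genes tested for nucleotide release, 0 rose and 3 fell, and of 5 desensitisation genes limma called 0, with 2 at an unadjusted p under 0.05.

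UDP-glucose was set against no treatment in culture to see what this agonist of P2Y14 changed. None of the 6 members tested was called by limma, at a background of 0.609% of 12161 genes called, 0.428% higher and 0.181% lower (0.518% and 0.0822% after median-of-ratios scaling). Of the 6, 1 had an unadjusted p under 0.05, P2rx7. P2rx7 measured 14.9, 18.0 and 14.9 TPM in UDP-glucose cultures, against 20.9, 17.9 and 28.8 TPM in control cultures. The groups overlapped, and the log2 difference was -0.45 (95% interval -0.86 to -0.04, limma adjusted p = 0.443). P2rx4 measured 115.6, 100.8 and 106.2 TPM in UDP-glucose cultures, against 110.3, 119.1 and 121.4 TPM in control cultures (log2 difference -0.12, 95% interval -0.29 to 0.05). P2ry2 measured 20.6, 22.4 and 18.8 TPM in UDP-glucose cultures, against 20.5, 20.8 and 21.9 TPM in control cultures (log2 difference -0.04, 95% interval -0.26 to 0.18). Adora2a measured 14.2, 17.5 and 14.1 TPM in UDP-glucose cultures, against 14.4, 16.7 and 15.5 TPM in control cultures (log2 difference -0.03, 95% interval -0.30 to 0.25). For these last 3 genes the intervals leave out a change of 1 on the log2 scale in either direction.

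P2ry1 measured 2.56, 3.53 and 3.63 TPM in UDP-glucose cultures, against 3.40, 3.26 and 3.10 TPM in control cultures (log2 difference -0.02, 95% interval -0.40 to 0.37). P2ry6, the UDP receptor, measured 1.63, 1.40 and 1.72 TPM in UDP-glucose cultures, against 1.70, 0.823 and 1.88 TPM in control cultures (log2 difference 0.09, 95% interval -0.44 to 0.62). The groups overlapped for both genes. The signs of the differences of P2ry1, P2ry2 and Adora2a turned under median-of-ratios scaling. Adora2b, the low-affinity Gs-coupled adenosine receptor, was under the filter but was the single member whose groups did not overlap. It measured 0.797, 0.679 and 0.652 TPM in UDP-glucose cultures, against 0.134, 0.291 and 0.170 TPM in control cultures. Its log2 difference without the filter was 0.51 (limma adjusted p = 0.145), and over the other unfiltered fits the adjusted p ran from 0.0835 to 0.474. Of the 12161 genes that passed the filter, 4.73% were higher and 11.5% lower without overlap. These shares leave out genes under the filter, such as Adora2b. P2rx1, Adora1 and Adora3 averaged 0.181, 0.0619 and 0.247 TPM in UDP-glucose cultures, against 0.113, 0.143 and 0.353 TPM in control cultures, and overlapped. Around the receptors, 2 genes of the lists were called. Pde4b, which degrades cAMP, was 30.5 ± 2.2 TPM in UDP-glucose cultures and 49.0 ± 5.51 TPM in control cultures (log2 fold change -0.66, limma adjusted p = 0.0464). Alpl, a phosphatase that can cut nucleotides, was 62.4 ± 6.60 TPM in UDP-glucose cultures and 106.9 ± 8.42 TPM in control cultures (log2 fold change -0.77, limma adjusted p = 0.0224), and it was not called after median-of-ratios scaling. Of the 3 other purinergic receptors tested, limma called 0 and 2 had an unadjusted p under 0.05. Among these, P2ry14 had a log2 difference of 0.38 (limma adjusted p = 0.0649) and was called higher after median-of-ratios scaling (0.43). In the remaining lists limma called 0 genes, and at an unadjusted p under 0.05 stood 1 of 16 genes of the Gs and Gi arm, 0 of 10 of the Gq arm, 1 of 8 for nucleotide release, 0 of 7 for adenosine clearance, 1 of 5 for desensitisation and 1 of 4 of the inflammasome arm.

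The single-cell library shows in which cells of a digested liver the receptors were found. It held 5063 barcodes and 12101368 unique molecular identifiers (UMIs, tags that count single captured molecules), with a median of 1983 UMIs per barcode. After filters 4807 cells remained, in 22 clusters built with the 10 receptors left out of the genes used, of which 18 clusters were named from marker genes as 12 classes. There is 1 sample, so nothing was tested, and the intervals below cover counting error only. Levels are in CPM, the UMI counts of a gene scaled to the summed UMIs of each class, and are compared between classes, not between genes. Stellate-like cells (341, median 3149 UMIs) were led by Dcn, Colec11 and Ecm1 and held 35130 CPM of the 15 stellate markers, against 479 CPM in hepatocyte-like cells. No cluster was named for platelets.

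Adora2a, the leading receptor of the sorted cells, was measured at 71.3 CPM in stellate-like cells (95% interval 56.6 to 88.6). It was also found outside them, at 51.7 CPM in T cell-like cells (38.3 to 68.4), at 48.5 CPM (25.8 to 82.9) in plasmacytoid dendritic cell-like cells, and at 90.8 CPM (53.8 to 144) in an unnamed cluster of 99 cells led by Gzma and Ccl5, genes of cytotoxic lymphocytes. These 4 intervals overlap. Sinusoidal endothelial-like cells (2172) were lower, at 16.2 CPM (12.5 to 20.6), and hepatocyte-like cells (487) held 1 UMI, or 0.701 CPM (0.0177 to 3.90). The share of cells with an Adora2a UMI was 21.4% in stellate-like cells (17.2% to 26.2%), against 0.205% in hepatocyte-like cells, whose median was 1852 UMIs. With each cell thinned to 1000 UMIs, the shares were 7.96% in stellate-like, 5.71% in T cell-like and 1.36% in sinusoidal endothelial-like cells. Of the 341 stellate-like cells, 73 held an Adora2a UMI, 66 a UMI of P2ry14, the UDP-glucose receptor of this study, and 16 both.

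Adora1 lay elsewhere. Of its 22 UMIs, 14 were in hepatocyte-like cells (9.81 CPM, 5.36 to 16.4), all of them in 1 of the 2 hepatocyte-like clusters. That cluster of 156 cells (median 2555 UMIs), led by Cps1 and Fga, held 19.8 CPM (10.8 to 33.2), and the other, of 331 cells (median 1607 UMIs), held 0 (exact interval up to 5.13 CPM). No Adora1 UMI was found in the 341 stellate-like cells (exact interval up to 1.08% of cells). Adora2b and Adora3 had 9 UMIs each, of which 6 and 7 were in the 112 MHC class II myeloid-like cells. No stellate-like cell held a UMI of either.

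Of the P2Y receptors, P2ry1 was measured at 32.6 CPM in stellate-like cells (22.9 to 44.9), below the 73.2 CPM of sinusoidal endothelial-like cells (65.1 to 82.0). Vein endothelial-like cells held 67.1 CPM (43.8 to 98.3), an interval that overlaps the stellate-like one. All 5 clusters of sinusoidal endothelial-like cells held P2ry1 at 53.3 to 93.7 CPM. Hepatocyte-like cells held 9.81 CPM (5.36 to 16.4). P2ry6 was a myeloid transcript, at 148 CPM in MHC class II myeloid-like cells (112 to 192), 85.6 CPM in Kupffer-like cells (67.8 to 106) and 52.2 CPM (28.5 to 87.6) in plasmacytoid dendritic cell-like cells. Stellate-like cells held 9 P2ry6 UMIs, or 7.92 CPM (3.62 to 15), and hepatocyte-like cells 0 (exact interval up to 2.58 CPM). P2ry2 had 28 UMIs in all. Of these, 13 were in hepatocyte-like cells (9.11 CPM, 4.85 to 15.6) and 8 in stellate-like cells (7.04 CPM, 3.04 to 13.9), so the order of these classes was not resolved at this depth.

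Of the P2X channels, P2rx4 was the most widely spread. It was measured at 137 CPM in Kupffer-like cells (114 to 163), 104 CPM in sinusoidal endothelial-like cells (94.7 to 115), 90.7 CPM in stellate-like cells (74.0 to 110), 71.5 CPM in MHC class II myeloid-like cells (47.1 to 104) and 49.7 CPM in hepatocyte-like cells (38.8 to 62.7). Erythroid-like cells, the deepest of these at a median of 4882 UMIs, held 3.78 CPM (0.458 to 13.7). Erythroid markers, the globin genes among them, held 873100 CPM of this class, so few of its UMIs came from other genes. Its values are therefore not on a like footing with those of other classes. A P2rx4 UMI was seen in 24.6% of stellate-like cells (20.2% to 29.6%) and in 1.83% of erythroid-like cells. P2rx7 was lower in stellate-like cells, at 11.4 CPM (6.09 to 19.6), than in T cell-like cells at 42.2 CPM (30.2 to 57.5), and its interval overlapped those of Kupffer-like cells at 28.9 CPM (19.0 to 42.0) and sinusoidal endothelial-like cells at 21.1 CPM (16.9 to 26.1). P2rx7 reached 58.6 CPM (29.3 to 105) in an unnamed cluster of 36 cells led by Hist1h2ap and other genes of cell division. P2rx1 had 6 UMIs in the library, 4 of them in stellate-like cells, 1 in sinusoidal endothelial-like and 1 in hepatocyte-like cells.

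**Figure D4:**
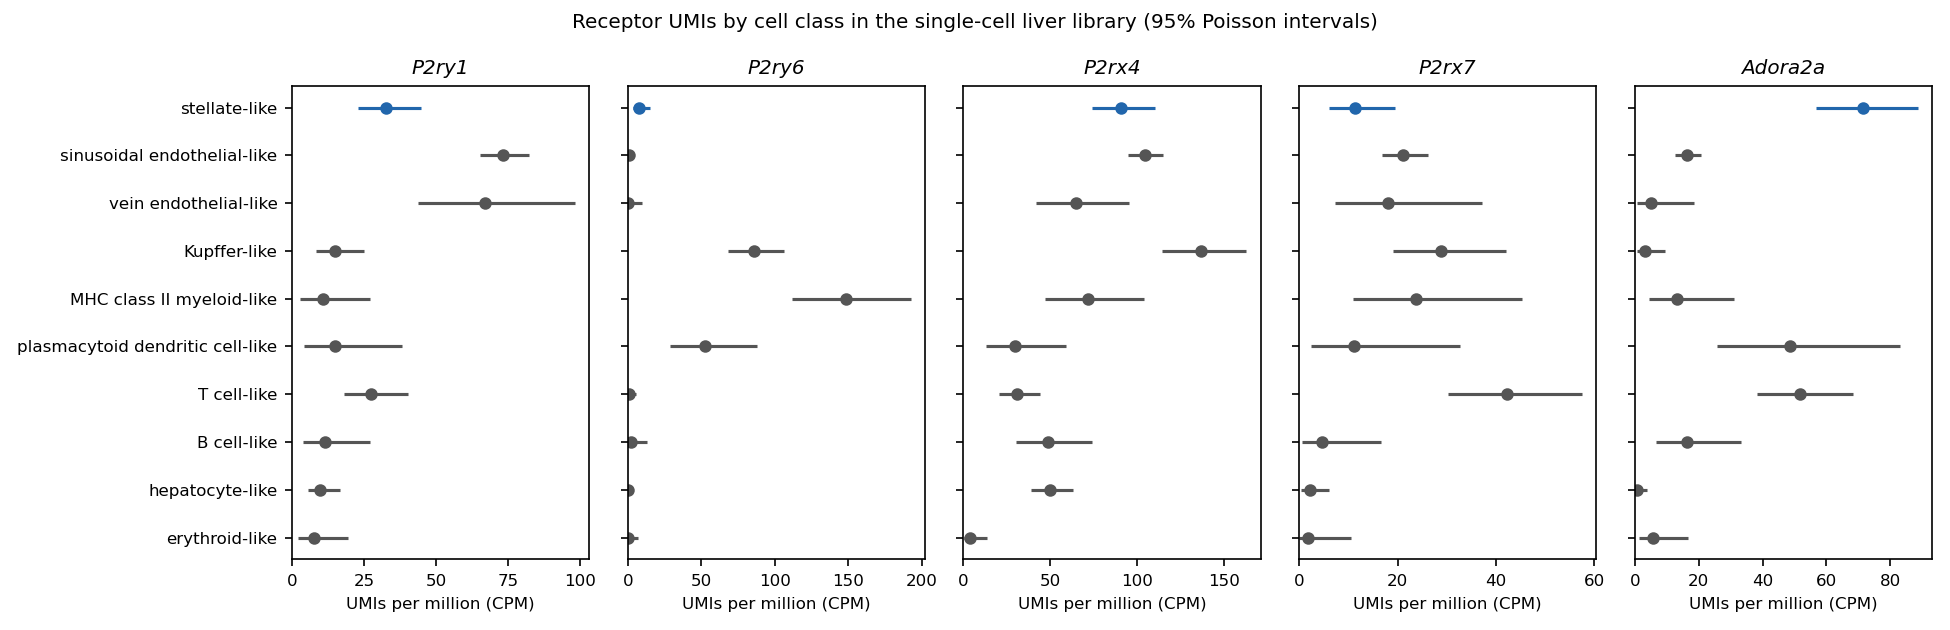
CPM of the 5 best-measured receptors in 10 classes of the single-cell library (CPM on the x axis, with a separate scale per gene), with stellate-like cells on top in blue. Points are sums over the cells of a class and lines exact 95% Poisson intervals, which cover counting error only. Adora2a is high in stellate-like, T cell-like and plasmacytoid dendritic cell-like cells, P2ry1 in endothelial classes, P2ry6 in myeloid classes, and P2rx4 in Kupffer-like, endothelial and stellate-like cells.

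For the 6 members that reached 5 TPM in a bulk group, the genes with the most similar pattern were found among 10874 genes, as the smallest Euclidean distance between centred log2(TPM + 1) means of the 4 bulk groups. Adora2a was nearest to Pygm (muscle glycogen phosphorylase, distance 0.16), which averaged 15.1 TPM in UDP-glucose cultures, 15 TPM in control cultures, 89.2 TPM in quiescent cells and 0.217 TPM in liver, and then to Acap1. P2ry1 was nearest to Adam12 (a metalloprotease, 0.07), Adamts3 and Prc1, and P2rx1 to Sh2d2a (an adaptor of T cell signalling, 0.07), Tnf (the cytokine TNF) and Ppm1n. P2rx4 was nearest to Kat8 (a histone acetyltransferase, 0.03), Nedd4l (a ubiquitin ligase) and Mtfr1l, and P2ry2 to Wdr12 and Mrto4, which act in ribosome assembly, and to Yjefn3. P2rx7 had no neighbour as near, with Dynlt1c at 0.25, Atoh8 at 0.28 and Sars (seryl-tRNA synthetase) at 0.28. The pattern rests on 4 group means and is a description.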

How the data were processed

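Bulk RNA was measured in 13 libraries and single cells in 1. The authors deposited bulk values as TPM per gene, and per the submitters' processing notes kallisto 0.44.0, bcl2fastq 2.19 and Cell Ranger were used. The single-cell values are counts of UMIs per gene and barcode as deposited. Of 35197 rows per bulk table, 26 carried dates in place of symbols and were left out.

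Differences were fitted with limma 3.58.1 (R 4.3.3) on log2(TPM + 1), a scale that understates changes of low genes, for genes averaging 1 TPM or more over both groups' libraries. The two-sided p-values were adjusted by the Benjamini-Hochberg method over all genes, at a threshold of 0.05 and, except for UDP-glucose, a log2 fold change of 1 or more in size. The fit was tested on simulated data. Alternatives were other scalings, filters and pseudocounts, all 13 libraries in 1 fit, robust variances and leaving out each library.

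Single cells were clustered with scanpy 1.11.5 (Python 3.11.15) at Leiden resolution 1. Of 5063 barcodes, 207 had under 200 genes and 63 had over 20% of UMIs from mitochondrial genes. These were removed, none had under 500 UMIs, and 4808 were left. The doublet caller marked 1, which was removed; it marked too few to have worked, so doublets may remain. A cluster took a name with "-like" if 3 or more markers of a type were among its 50 leading genes. The next type could have no more than 1 for every 2 of them. A name was withheld if another type had more markers among the 10 leading genes, or if the first gene was a marker of other types only. Shallow clusters with no marker of the type among those 10 were also left unnamed. In all, 266 cells stayed unnamed. Intervals are exact (Poisson for CPM, Clopper-Pearson for shares) at 95%.

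The members, lists and markers were chosen with earlier results of these data known. Named are all 10 members, up to 4 called genes per list and comparison (largest fold change, at least 5 TPM in a group), other purinergic receptors of at least 1 TPM in a group, and the 3 genes most alike to each member of at least 5 TPM. Not every gene this rule allows is printed. Positions come from GENCODE vM21, and promoters, found for 8 of the 10 members, from RefSeq.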

Additional observations from a re-analysis of the deposited data

Results flagged for a closer look

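Adora1 in quiescent stellate cells was flagged for an outlying sample, since 1 library held 0.0307 TPM and the other 3 were listed at 0. With 3 values tied at 0, any other value in the fourth library is flagged, however small. The 10 members' values in quiescent cells, the only bulk group of 4, were examined in this way. Chance flags about 1 in 20 groups, a rate that does not hold for values tied at 0. The value is far below every liver library (2.56 to 4.22 TPM).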

How the results depend on the processing

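No paired analysis was possible because the labels give the groups no shared replicate numbers. In quiescent cells against liver, 3 members were called in place of 6 with a minimum of 5 TPM, where fewer genes are tested. Median-of-ratios scaling and quantile normalisation turned P2ry2 to -1.24 and -1.30 and P2rx4 to -0.72 and -0.20, and ended the call of P2rx7 (0.10 and 0.08). The cause was not tested. Without liver replicate 2, Adora1 was not tested and 5 members were called. In control cultures against quiescent cells, the 5 called members were called under each alternative that tested them. P2ry6, in unfiltered fits chosen after seeing the data, passed the minimum fold only with a pseudocount of 0.1 (1.57).

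In UDP-glucose against control cultures, 0 members were called under every alternative run. All genes called numbered 74, against 30 without a filter and 23 in a fit of all 13 libraries. The count was 30, 20 and 24 without UDP-glucose replicates 1, 2 and 3, and 24, 64 and 21 without control replicates 1, 2 and 3. The same scalings turned P2ry1 to 0.022 and 0.078, P2ry2 to 0.011 and 0.024 and Adora2a to 0.019 and 0.039. With a library left out, log2 differences ran from -0.083 to 0.107 for P2ry1, -0.096 to 0.024 for P2ry2, -0.111 to 0.219 for P2ry6 and -0.124 to 0.024 for Adora2a. These differences lie near 0, and none was called.

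In the single-cell library, of 120 shares of cells with a UMI, 47 moved beyond their interval on thinning to 1000 UMIs, 7 with at least 1500 UMIs per barcode, 7 at Leiden resolution 2 and 0 with the receptors allowed among the variable genes. At resolution 0.5 no T cell or cholangiocyte class was named, and 0 of the other 100 moved. UMI depth limits P2rx1, Adora2b and Adora3, which had 6, 9 and 9 UMIs.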
